A study of Mus musculus with 8 samples.

Results

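A set of 10 RNAs that mark mesenchymal cells and their matrix was followed in cultured foetal liver cells with and without the Hippo kinases LATS1 and LATS2. The members are non-collagen markers of mesenchymal cells, taken by symbol and not by a threshold on values. They are *Dcn*, *Lum*, *Bgn*, *Mfap4*, *Fbln2*, *Postn*, *Pdgfra*, *Pdgfrb*, *Thy1* and *Des*, 10 of the 23467 genes in the table. Their choice was made with earlier results of these data known, so shares of all genes set beside them are a description. RNA was sequenced from 8 libraries of mouse cells of a mixed B6;129 strain, all isolated from livers at E14.5. Control cells are labelled wild type, and L1L2_Alb cells carry the genotype *Lats1*-/-; *Lats2* fl/fl; Alb-cre, so that the *Lats1* null allele is in every cell type, whereas *Lats2* is deleted only where the albumin promoter drives Cre. Hepatoblasts were grown on collagen-coated plates (iHB), treated with 12.5 ng per ml Oncostatin M for 5 days by the labels (the methods state another duration) to give hepatocyte-like cells (iHP), or kept on Matrigel for 14 days to give biliary epithelial cells (iBEC). Each stage had 1 control library, and there were 1 iHB, 2 iHP and 2 iBEC libraries of L1L2_Alb cells. The methods describe digestion, straining and lysis of red cells before plating, with no sort of hepatoblasts. No source used here tells if paired libraries derive from different embryos, so that p-values measure the spread between these libraries only. In the test of genotype across stages, that spread includes any disagreement of the effect between stages. The labelled types were not set apart by all of their markers: in the controls the biliary keratin *Krt7* was lowest in iBEC (62.3 RPKM, with 399.6 RPKM in iHB and 361 RPKM in iHP), as was *Krt19* (83.7, 273 and 168 RPKM), and *Alb* was highest there (6162, 2485 and 3088 RPKM), whereas the biliary marker *Spp1* was also highest in iBEC (23271, 1706 and 3188 RPKM).

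Decorin, lumican and biglycan (*Dcn*, *Lum*, *Bgn*) are small leucine-rich proteoglycans that bind collagen fibrils. Microfibril-associated protein 4 (*Mfap4*) and fibulin-2 (*Fbln2*) belong to elastic and microfibrillar matrix, and periostin (*Postn*) is a matricellular protein made by activated fibroblasts. *Pdgfra* and *Pdgfrb* encode the receptors for platelet-derived growth factors, *Thy1* a surface glycoprotein of fibroblasts, and *Des* the intermediate filament desmin of muscle and hepatic stellate cells. In the liver these genes are known from stellate cells, portal fibroblasts and vascular mural cells rather than from hepatoblasts, and in whole cultures fewer cells of a type and less RNA per cell cannot be told apart.

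In iHB and iHP, most of these RNAs were lower in L1L2_Alb than in control libraries, and *Fbln2* was the clearest exception. On the scale of log2(RPKM + 1), where RPKM is the read number scaled by gene length and by library size, the median difference over the members was -1.54 in iHB and -1.66 in iHP, against -0.086 and -0.0073 over the 13421 genes that averaged 1 RPKM or more. In iBEC the members' median was 1.00 in one L1L2_Alb library and -0.26 in the other, against 0.22 and 0.26 over all of those genes, and the median of the averaged differences, 0.39 (0.25 over all genes), combines libraries of opposite sign. A stage has 1 control library, so these values carry no test.

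**Figure D1:**
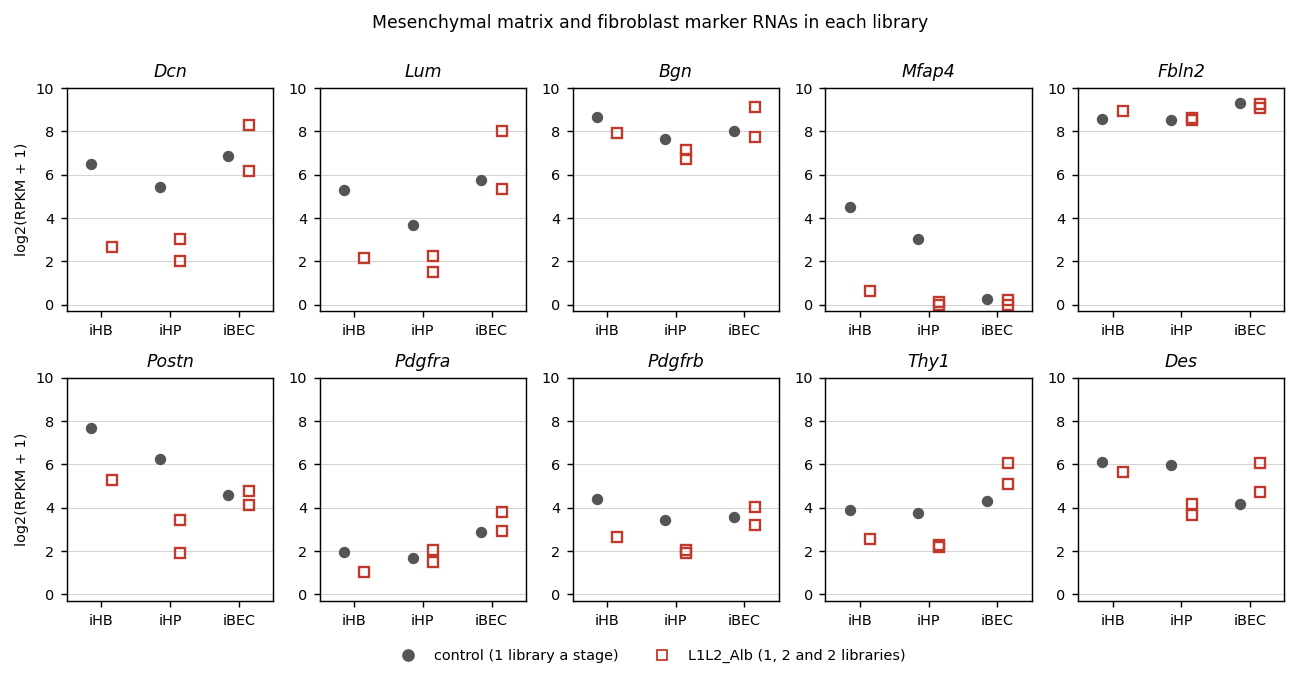
Each panel plots 1 gene as log2(RPKM + 1), with the control library of each stage as a filled circle and the L1L2_Alb libraries as open squares. *Dcn*, *Lum*, *Mfap4* and *Postn* lie well below the controls in iHB and iHP, and the iBEC squares lie on both sides of the control for *Dcn*, *Lum*, *Bgn*, *Postn* and *Pdgfrb*.

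Among the proteoglycans, *Dcn* had 88.9 RPKM in control and 5.28 RPKM in L1L2_Alb iHB. Control iHP contained 42.6 RPKM, and the L1L2_Alb iHP libraries 3.11 and 7.10 RPKM. In iBEC the control had 115 RPKM and the L1L2_Alb libraries 309 and 71.4 RPKM. Thus all L1L2_Alb libraries of iHB and iHP lay below every control of any stage, whereas the iBEC control fell between its L1L2_Alb counterparts. The RPKM ratio of control to L1L2_Alb was 16.8 in iHB, and 13.7 and 6.00 in the iHP libraries.

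*Lum* had the same order of libraries within each stage. Its level was 38.6 RPKM in control iHB and 3.53 RPKM in L1L2_Alb iHB, 11.8 RPKM in control iHP and 1.83 and 3.78 RPKM in L1L2_Alb iHP. In iBEC control cells reached 52.3 RPKM and the L1L2_Alb libraries 259 and 39.8 RPKM, which differed from one another 6.50-fold. *Dcn* and *Lum* are neighbours on chromosome 10 in the RefSeq annotation (GRCm38.p6), and their log2 levels had a correlation of r = 0.98 over the 8 libraries. The genes next to them, *Kera*, *Epyc* and *Ccer1*, which were looked up for that reason alone, were listed at 0 in every library.

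*Bgn* was the most abundant of these proteoglycans per length in every library and varied least. Control iHB held 408 RPKM and L1L2_Alb iHB 239.7 RPKM, and control iHP held 199.5 RPKM with 105 and 139 RPKM in L1L2_Alb iHP. In iBEC the control had 258 RPKM and the L1L2_Alb libraries 550.5 and 215 RPKM. The L1L2_Alb value was lower in iHB and in both iHP libraries, but none of these differences reached 2-fold, and in iBEC the groups overlapped.

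*Mfap4*, a protein of elastic fibre-associated microfibrils, showed the widest gap. Control iHB had 21.97 RPKM, or 946 reads, and L1L2_Alb iHB 0.576 RPKM, or 25 reads, a ratio of 38.2 with an exact 95% interval of 25.7 to 59.3 that covers counting error only. Control iHP had 7.08 RPKM from 300 reads, while the L1L2_Alb iHP libraries held 0 and 3 reads. Against a floor of 3 reads per library, the first was at least 65.9-fold lower, and the second had a ratio of 76.1 with an interval of 25.8 to 371. In iBEC the gene was near the floor in both genotypes, with 10 reads in the control and 6 and 0 reads in the L1L2_Alb libraries, so that a difference was not detectable at this depth. *Mfap4* was the only member lower in all 5 L1L2_Alb libraries, a pattern of 10.1% of the genes tested.

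*Fbln2*, which binds fibronectin and basement membrane proteins, stayed at a high level everywhere. Control iHB had 382 RPKM and L1L2_Alb iHB 489 RPKM, and control iHP had 372 RPKM with 387 and 365 RPKM in L1L2_Alb iHP. Control iBEC had 639 RPKM, and L1L2_Alb iBEC had 613 and 532 RPKM. The highest and lowest of the 8 libraries differed only 1.75-fold, and in iHP the control lay between the L1L2_Alb libraries.

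*Postn* behaved unlike *Fbln2*. Control iHB held 203 RPKM and L1L2_Alb iHB 37.5 RPKM, while control iHP held 75.8 RPKM and L1L2_Alb iHP 2.75 and 9.76 RPKM. The control iBEC level of 23.1 RPKM lay between those of the L1L2_Alb iBEC libraries, 26.6 and 16.4 RPKM. The iHB and iHP controls were therefore the highest values, and the L1L2_Alb iHP libraries the lowest, at RPKM ratios of control to L1L2_Alb of 27.6 and 7.77.

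RefSeq promoter windows were at hand for *Postn* and *Fbln2*, which had unlike patterns, and for 3 other members (*Des*, *Pdgfra* and *Bgn*). The windows end at an annotated gene start in GRCm38.p6. They are shown for these genes because *Postn* had a wide gap between genotypes in iHP and *Fbln2* a narrow one, and capitals mark the motif TATAAA. The *Postn* windows are chr3:54359017-54359266 and chr3:54360857-54361106, and the *Fbln2* window is chr6:91212514-91212763, all on the plus strand.
Postn, first start: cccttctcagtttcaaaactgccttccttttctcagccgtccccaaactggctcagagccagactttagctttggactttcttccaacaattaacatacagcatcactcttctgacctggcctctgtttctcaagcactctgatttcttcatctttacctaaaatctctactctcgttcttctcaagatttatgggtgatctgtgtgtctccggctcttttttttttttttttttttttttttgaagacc
Postn, second start: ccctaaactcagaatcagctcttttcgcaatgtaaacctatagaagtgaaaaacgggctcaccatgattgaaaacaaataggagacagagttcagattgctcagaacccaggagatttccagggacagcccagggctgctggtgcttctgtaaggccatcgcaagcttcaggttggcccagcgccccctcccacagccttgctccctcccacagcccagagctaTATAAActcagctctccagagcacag
Fbln2: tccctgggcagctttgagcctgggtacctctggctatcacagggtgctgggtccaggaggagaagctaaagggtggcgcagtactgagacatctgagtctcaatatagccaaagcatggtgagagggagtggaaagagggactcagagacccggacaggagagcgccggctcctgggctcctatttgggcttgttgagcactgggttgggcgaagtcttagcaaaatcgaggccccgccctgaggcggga
TATAAA was found in 1 of the 6 windows, 26 bases before the second *Postn* start, when both strands were searched, and 12.4% of 32851 promoter windows of this length hold it. The letters GGAATG, the core bound by TEAD factors that partner with YAP and TAZ, were in 0 of the 6 windows and in 12.6% of all. No other motif was searched for, and these are matches of letters only.

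The PDGF receptors differed from each other. *Pdgfra* was low throughout, with 2.90 RPKM in control and 1.03 RPKM in L1L2_Alb iHB, and 2.18 RPKM in control iHP between 3.16 and 1.82 RPKM in L1L2_Alb iHP. All 3 iBEC libraries held more, with 6.47 RPKM in control and 13.1 and 6.57 RPKM in L1L2_Alb cells. *Pdgfra* thus separated stages more than genotypes.

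*Pdgfrb* had 20.4 RPKM in control and 5.21 RPKM in L1L2_Alb iHB. In iHP the control had 9.80 RPKM and the L1L2_Alb libraries 2.79 and 3.19 RPKM, and in iBEC the control had 11.1 RPKM and the L1L2_Alb libraries 15.4 and 8.12 RPKM. The L1L2_Alb libraries of iHB and iHP lay below all 3 controls, and those of iBEC overlapped them.

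For the cell surface and cytoskeletal markers, the sign of the difference was not the same in all stages, though a difference between stages passed no test. *Thy1* had 13.7 RPKM in control and 4.94 RPKM in L1L2_Alb iHB, and 12.5 RPKM in control iHP beside 3.85 and 3.62 RPKM in L1L2_Alb iHP. In iBEC both L1L2_Alb libraries, at 66.8 and 33.7 RPKM, were above the control at 18.9 RPKM. The L1L2_Alb libraries of iHB and iHP were thus the lowest of the 8 and those of iBEC the highest.

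*Des* had 68.7 RPKM in control and 49.1 RPKM in L1L2_Alb iHB. Control iHP contained 61.8 RPKM, and L1L2_Alb iHP 11.8 and 17.2 RPKM. In iBEC the control had 16.9 RPKM and the L1L2_Alb libraries 66.9 and 25.8 RPKM. L1L2_Alb values were below the control in iHB and iHP and above it in iBEC, without reaching 2-fold in iHB or in L1L2_Alb iBEC 2 (1.52-fold).

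Counted by stage, 6 of 10 members were past 2-fold lower in L1L2_Alb iHB (*Dcn*, *Lum*, *Mfap4*, *Postn*, *Pdgfrb* and *Thy1*), against 8.99% of the genes tested. Past 2-fold here means a difference of at least 1 on the log2(RPKM + 1) scale in every L1L2_Alb library of the stage. In iHP the same 6 members and *Des* made 7 of 10, against 8.26% of genes. In iBEC 0 of 10 were past 2-fold lower, against 1.62% of genes. The number past 2-fold higher was 0 in each stage, where 5.6%, 4.64% and 4.19% of genes were so in iHB, iHP and iBEC. *Fbln2* and *Pdgfra* were the members whose control value lay between the L1L2_Alb libraries in iHP, and in iBEC *Dcn*, *Lum*, *Bgn*, *Postn* and *Pdgfrb* did. How many of all genes had a control value so placed was not counted. Stages share their control library between both L1L2_Alb libraries, so these counts are not independent of that 1 library.

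**Figure D2:**
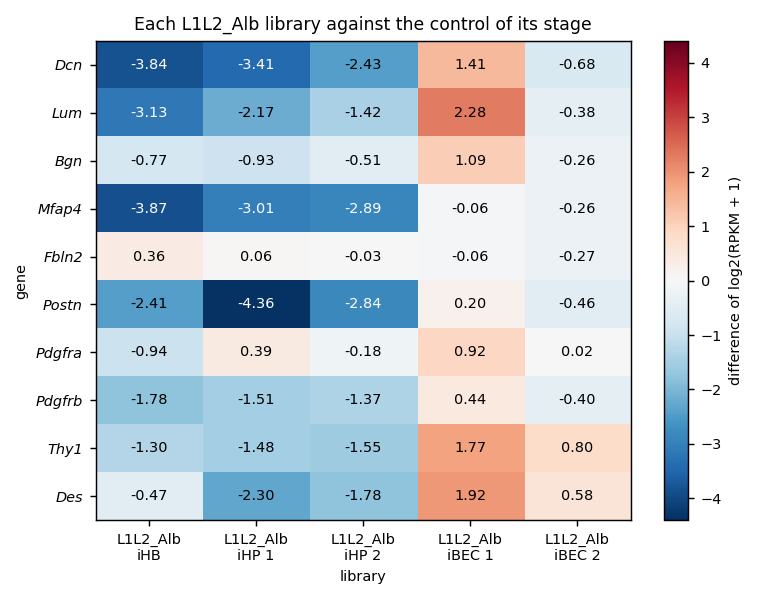
Each cell gives the difference of log2(RPKM + 1) between 1 L1L2_Alb library (columns) and the control library of its stage for 1 gene (rows), with blue for lower and red for higher. The iHB and iHP columns are mostly blue, with -4.36 for *Postn* as the lowest, and the columns of the iBEC libraries differ from one another.

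The iBEC libraries of L1L2_Alb cells did not resemble each other in these genes. The first exceeded the second in 10 of 10 members and by more than 2-fold in 4 of them, whereas it was higher in 42.2% and past 2-fold higher in 2.79% of all genes tested. It held the highest value of the 8 libraries for 5 members (*Dcn*, *Lum*, *Bgn*, *Pdgfra* and *Thy1*), and the share of all genes highest there was not counted. Set against the control, the first had 8 members higher, against 70.5% of genes, and 5 of them past 2-fold, against 8.29%. The second had 3 higher and 7 lower, against 76.3% and 23.6% of genes, with none past 2-fold, where 7.44% of genes were so higher and 2.31% lower. In the L1L2_Alb iHP libraries, 8 and 10 members were lower than the control, against 48.8% and 51.6% of genes. Over all genes the iHP libraries were further apart, with a median absolute log2 difference of 0.425, than the iBEC libraries, with 0.246, and *Postn* differed more within iHP (3.55-fold) than within iBEC (1.62-fold). The median of all genes in iBEC also moved, from 0.25 to 0.069 with upper-quartile scaling and to -0.011 with quantile normalization, under which the members' median was 0.19 and 0.15.

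Across all 8 libraries, with stage in the model, 0 of 10 members passed the test of genotype by limma at an adjusted p of 0.05, against 6.2% of genes called higher and 3.37% called lower. At an unadjusted p under 0.05, 4 members were lower (*Dcn*, *Mfap4*, *Pdgfrb* and *Postn*), against 10.2% of genes. The log2 fold change was -1.98 (SE 0.770) for *Dcn*, -2.19 (SE 0.582) for *Mfap4*, -2.01 (SE 0.619) for *Postn* and -1.003 (SE 0.354) for *Pdgfrb*. Their limma adjusted p-values were 0.147, 0.0532, 0.0793 and 0.115. The remaining members had estimates from -1.16 for *Lum* to 0.043 for *Fbln2*, with limma adjusted p-values of 0.400 to 0.947. The median over the members was -0.72, and that of all genes tested 0.058. The fitted value of *Mfap4* understates its ratio of reads, since the added 1 RPKM is larger than its level in most libraries.

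The count rests on the iBEC stage. Without L1L2_Alb iBEC 1, 3 members passed as lower by limma (*Dcn*, adjusted p = 0.0274; *Mfap4*, 0.0408; *Pdgfrb*, 0.0395), against 3.28% of genes. With the whole stage left out, 6 passed (*Dcn*, *Lum*, *Mfap4*, *Postn*, *Pdgfrb* and *Thy1*), against 6.5% of genes called lower in that fit. The log2 fold changes then ranged from -3.34 (SE 0.302, limma adjusted p = 0.00350) for *Mfap4* and -3.31 (SE 0.388, limma adjusted p = 0.00578) for *Dcn* to 0.16 for *Fbln2*. *Postn* was at -3.09 (SE 0.498, limma adjusted p = 0.0151), *Lum* at -2.37 (SE 0.410, limma adjusted p = 0.0177), *Pdgfrb* at -1.59 and *Thy1* at -1.42.

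**Figure D3:**
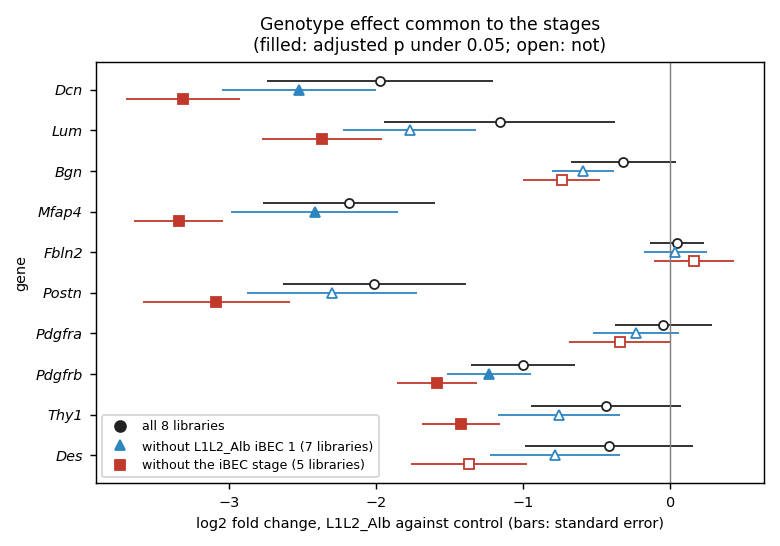
Points are the log2 fold change of L1L2_Alb against control with stage in the model, bars are standard errors, and symbols stand for all 8 libraries, 7 libraries without L1L2_Alb iBEC 1, and the 5 libraries of iHB and iHP. Filled symbols passed limma at an adjusted p of 0.05: 0, 3 and 6 members.

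Whether the genotype effect differed between stages was tested with the interaction terms, for which only the pairs of L1L2_Alb libraries give a spread (2 residual degrees of freedom). By limma's moderated F test, 0 of 10 members passed, as did 0% of all genes, whose smallest adjusted p was 0.122. At an unadjusted p under 0.05, 5 members were found (*Dcn*, *Mfap4*, *Postn*, *Thy1* and *Des*), against 5.46% of genes. The lowest limma adjusted p among the members was 0.275, for *Mfap4*.

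Between stages, with genotype held, 9 members had a higher estimate in iBEC than in iHP and 9 a lower one in iHP than in iHB. The shares of all genes with these signs were not counted. For iBEC against iHP the members' median difference was 1.13, with -0.091 for all genes. *Lum* was 3.89 log2 units higher in iBEC than in iHP (SE 0.869, limma adjusted p = 0.0485), the only member of 10 called in that comparison, against 2.45% of genes called higher and 1.67% lower. *Thy1* at 2.42, *Dcn* at 3.60 and *Pdgfra* at 1.47 were just short of it, with limma adjusted p-values of 0.0556, 0.0576 and 0.0642, and 7 members had an unadjusted p under 0.05, against 22.2% of genes. The call of *Lum* was lost with any 1 L1L2_Alb iHP or iBEC library left out, and without L1L2_Alb iBEC 1 its difference was 2.77 log2 units. In the L1L2_Alb libraries alone, 3 members passed as higher in iBEC than iHP (*Dcn*, *Lum* and *Thy1*), against 2.96% of genes.

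Against iHB, iBEC libraries had 1.73 log2 units more *Pdgfra* (SE 0.409, limma adjusted p = 0.0478). It was the only member called of 10, against 2.94% of genes called higher and 2.78% lower. That call was lost without L1L2_Alb iHP 1 or without either L1L2_Alb iBEC library. Between iHP and iHB 0 of 10 members and 0% of genes passed limma, and 2 members (*Bgn* and *Postn*) had an unadjusted p under 0.05, against 8.63% of genes. The members' median difference was -0.98 for iHP against iHB, with -0.15 for all genes.

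In the control libraries alone, *Mfap4* was at 21.97 RPKM in iHB and 0.199 RPKM in iBEC, and *Postn* was 8.81 times as high in iHB as in iBEC. *Des* was 4.05 times as high in control iHB as in control iBEC, while *Dcn*, *Lum* and *Thy1* were 1.29, 1.35 and 1.38 times as high in control iBEC. These are ratios of single libraries.

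Genes of the same matrix families that were called by genotype moved in both directions. Over all genes, 6.2% were called higher and 3.37% lower. Of 12 other small leucine-rich proteoglycans only 4 averaged at least 1 RPKM, and 1 of these was called by limma: *Prelp*, a proteoglycan that anchors basement membrane to collagen, fell by 2.38 on the log2 scale (SE 0.34, limma adjusted p = 0.00672). Of 17 fibulins, fibrillins and microfibril proteins tested, 2 rose (*Efemp1*, log2 fold change 1.55, and *Ltbp3*, 0.61) and 2 fell (*Fbln5*, -1.02, and *Mfap5*, -1.20). Of 16 matricellular and matrix glycoproteins, *Nid2* rose (1.92) and *Smoc1* (-2.34) and fibronectin, *Fn1* (-1.54), fell. Among 14 genes of collagen processing, the cross-linking oxidase *Loxl4* rose (2.42) and the procollagen protease enhancer *Pcolce2* fell (-0.84). The medians of these 4 lists were -0.69, -0.32, -0.49 and 0.22, beside 0.058 for all genes. In the same order, 3 of 4, 8 of 17, 6 of 16 and 2 of 14 were past 2-fold lower in iHB, against 8.99% of genes. Past 2-fold higher were 0, 1, 2 and 4, against 5.6%. In iHP 1, 7, 6 and 2 were past 2-fold lower, against 8.26% of genes, and 0, 1, 1 and 1 higher, against 4.64%.

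Fibrillar collagens had a profile much like that of the members. All 5 were past 2-fold lower in iHB and in iHP and 0 of 5 in iBEC, and *Col5a1* was called by limma (log2 fold change -1.46, adjusted p = 0.0378), with the other 4 at an unadjusted p under 0.05. Their summed level was 4260 RPKM in control iHB and 1336 RPKM in L1L2_Alb iHB, 2671 RPKM in control iHP and 730 and 1150 RPKM in L1L2_Alb iHP. Control iBEC reached 2717 RPKM, with 3325 and 1640 RPKM in L1L2_Alb cells.

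None of the 4 PDGF ligands passed limma, and 2 had an unadjusted p under 0.05. *Pdgfd*, a ligand of the beta receptor, had a log2 fold change of 1.22 (adjusted p = 0.0706), and *Pdgfa*, a ligand of the alpha receptor, had -0.53 (adjusted p = 0.0731). *Pdgfb* and *Pdgfc* had 0.17 and -0.06.

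Marker lists of other cell types were read beside these results. Of 10 pericyte and smooth muscle markers 7 were tested and none passed limma (2 at an unadjusted p under 0.05), with *Acta2* (log2 fold change -1.01, adjusted p = 0.162) and *Tagln* (-0.80, adjusted p = 0.320) as the most abundant. Their sum was 1636 RPKM in control and 846 RPKM in L1L2_Alb iHB, and 984 RPKM in control and 184 and 446 RPKM in L1L2_Alb iHP. In iBEC it was 291 RPKM in control and 423 and 226 RPKM in L1L2_Alb cells. Of the 7 tested, 3 in iHB and 4 in iHP were past 2-fold lower, against 8.99% and 8.26% of genes. This list's median by genotype was -0.80, beside -0.72 for the members. Of 12 stellate cell markers 7 were tested, and *Ecm1* rose (1.34, limma adjusted p = 0.00411), while 5 of the 7 had an estimate below 0 and the list's median was -0.21. The list's sum, 289 to 351 RPKM in control and 615 to 781 RPKM in L1L2_Alb libraries, is mostly *Ecm1* (256 of 351 RPKM in control and 675 of 781 RPKM in L1L2_Alb iHB). The defining stellate markers *Lrat* (at most 4.02 RPKM), *Reln* (at most 0.174 RPKM) and *Gfap* (at most 0.131 RPKM), named after their values were seen, were near absent. Of 15 fibroblast and portal mesenchyme markers 8 were tested, and *Nt5e* rose (1.38, limma adjusted p = 0.00647), while 5 of the 8 had an estimate below 0, 1 of them at an unadjusted p under 0.05, and the list's median was -0.35. In iHB 5 of the 8 were past 2-fold lower and 1 higher. That list summed to 110 to 222 RPKM in control and 113 to 184 RPKM in L1L2_Alb libraries.

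The mesothelial markers called moved opposite to the members: 3 of 5 tested rose, against 6.2% of genes called higher. Mesothelin, *Msln*, had a log2 fold change of 3.61 (limma adjusted p = 0.000930) and *Upk1b* 3.01 (limma adjusted p = 0.0119). *Upk3b*, named after its values were seen, was not called. Its log2 fold change was 0.53, with 3 L1L2_Alb libraries above their control and 2 below. It had 1.86 RPKM in control and 3.59 RPKM in L1L2_Alb iHB. In iHP the control had 2.97 RPKM and the L1L2_Alb libraries 1.65 and 0.69 RPKM. In iBEC the control had 0.177 RPKM and the L1L2_Alb libraries 3.53 and 3.05 RPKM. The list's sum was 125 to 279 RPKM in control and 1102 to 3641 RPKM in L1L2_Alb libraries. It was mostly *Msln*, with 261 of 279 RPKM in control and 3536 of 3641 RPKM in L1L2_Alb iHB. Macrophage and leukocyte markers had 0 of 7 called (1 at an unadjusted p under 0.05), with a sum of 1175 to 2171 RPKM in control and 687 to 2753 RPKM in L1L2_Alb libraries. Endothelial markers were low, at 9.20 to 24.3 RPKM in control and 3.17 to 22.3 RPKM in L1L2_Alb libraries, with 0 of 3 tested called (2 at an unadjusted p under 0.05). Of 2 erythroid markers tested, *Hbb-b1* fell (-2.09, adjusted p = 0.0335), and the list's sum was 2.85 to 109 RPKM in control and 1.99 to 22.5 RPKM in L1L2_Alb libraries. The part of any of these cell types in the members' levels was not tested.

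Hepatic genes summed to 8933 to 11842 RPKM in control and 7799 to 13241 RPKM in L1L2_Alb libraries, with 3 of 6 lower (*Alb*, log2 fold change -1.71, and *Ttr*, -1.95, among them). Of 6 biliary markers *Krt7* (2.17) and *Krt19* (1.31) rose and *Spp1* (-1.50) fell. Muscle markers, read for *Des*, had 2 of 7 tested with 0 called by either p, and the lymphoid and neural markers read for *Thy1* summed to at most 1.74 RPKM in any library, with *Cd3e* at 0. *Lats1* RNA was not lower in the fit over the libraries labelled L1L2_Alb (log2 fold change 0.44, limma adjusted p = 0.460). It was below the control in L1L2_Alb iHP 2, at 7.12 RPKM with 11.2 RPKM in control iHP. *Lats2* RNA was higher in the L1L2_Alb libraries (0.90, limma adjusted p = 0.0312), a call lost in 5 of 14 alternatives. The paper, by contrast, reports reduced LATS1/2 expression in L1L2_Alb cells. The YAP targets *Ctgf* (1.73) and *Cyr61* (1.93) rose.

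**Figure D4:**
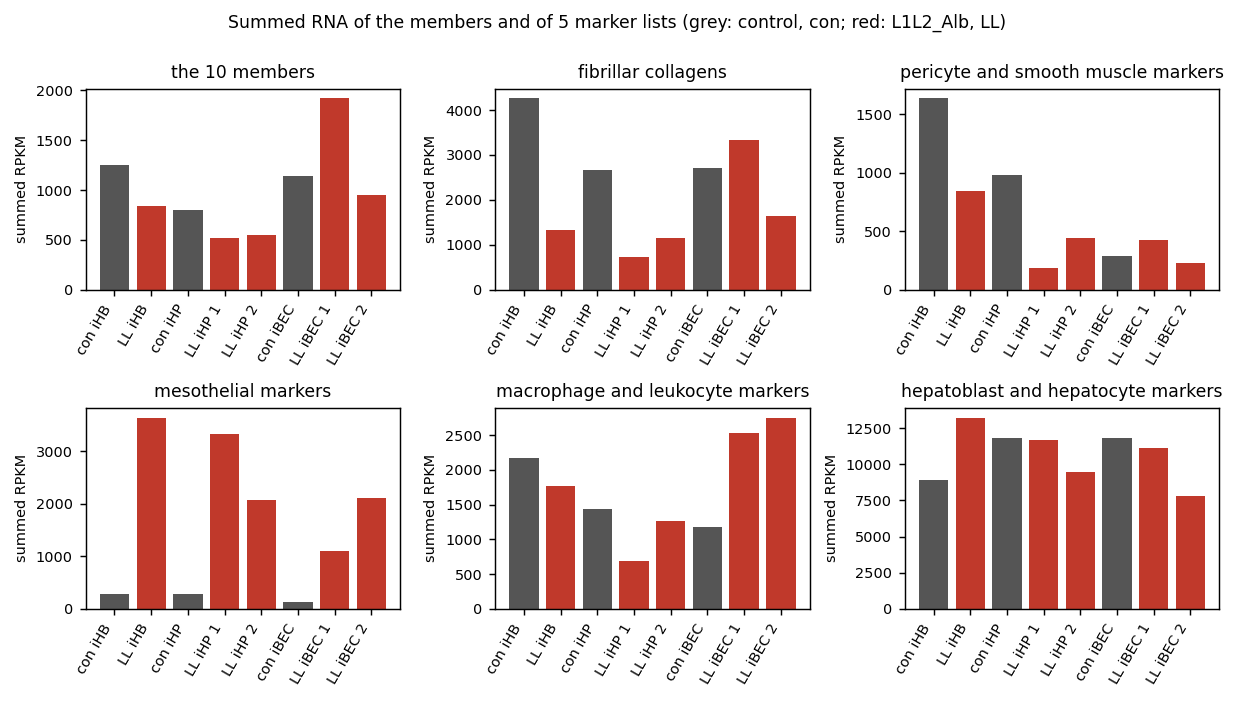
Bars give the summed RPKM of the 10 members and of 5 marker lists in each of the 8 libraries, with control (con) in grey and L1L2_Alb (LL) in red. The members range from 521 to 1920 RPKM, with the L1L2_Alb bars below the control in iHB and iHP and on both sides of it in iBEC, and the mesothelial bars are higher in every L1L2_Alb library.

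The members' profiles were compared over the 8 libraries as a description, with points that share depth and culture. Between single members r ranged from 0.98 (*Dcn* and *Lum*) and 0.96 (*Lum* and *Thy1*) down to -0.48 (*Mfap4* and *Fbln2*). The mean z-score of the members was most like *Adamts10* (r = 0.99), *Galnt16* (0.98), *Eml1* (0.98), *Accs* (0.98) and *Mgll* (0.97) among the other genes tested. *Adamts10*, a secreted protease, was at 18.4 RPKM in control and 4.74 RPKM in L1L2_Alb iHB, 7.99 RPKM in control and 2.25 and 2.37 RPKM in L1L2_Alb iHP, and 7.78 RPKM in control and 23.2 and 9.30 RPKM in L1L2_Alb iBEC.

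Libraries held 18436865 to 33229075 reads, recovered from short genes of known length. Whole reads could be recovered for 5 members (*Lum*, *Bgn*, *Mfap4*, *Thy1* and *Des*) and were 70 or more in every library for all of them but *Mfap4*. The L1L2_Alb libraries of a stage were distinct: no identical values were found, and *Lum*, *Bgn* and *Des* differed beyond counting noise in both stages, whereas *Thy1* in iHP, at 123 and 134 reads, did not (exact binomial test, p = 0.662).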

How the data were processed

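The deposited table gives RPKM computed by the authors for every gene in the 8 libraries, a unit inferred from whole steps of short genes of known length, without scaling between libraries. The submitters' processing notes name Bowtie 0.12.2 and mm8 with no role; the counting method and annotation are not given in the sources used here. Of 23471 entries, 4 of 2 repeated symbols were left out. The members and gene lists were chosen with earlier results of these data known. Values were changed to log2(RPKM + 1), and 13421 genes averaging 1 RPKM or more entered a limma model (limma 3.58.1, R 4.3.3, eBayes with trend) for genotype with stage as a covariate, with Benjamini-Hochberg adjustment over all genes tested, two-sided. The fit was tested on simulated data. Python 3.11.15 made the tables. Genes named are the members, in each list the 2 largest increases and decreases past the threshold (otherwise the 2 of highest mean), all PDGF ligands, the 5 genes most like the members and 4 checks of the genotype. Alternatives were another pseudocount (0.1), 2 scalings, 2 filters, no trend, and leaving out or averaging libraries. Depth was 18436865 to 33229075 reads, intervals cover counting error only, and overlapping or antisense genes cannot be told apart.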

Additional observations from a re-analysis of the deposited data

Results flagged for a closer look

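In 4 members the differences from control had opposite signs in a pair of stages, in all libraries, though some were close to no change. The share of all genes with such a pattern was not counted, so the 4 are not set apart from other genes. Over all genes, 70.5% and 76.3% were higher than the control in the L1L2_Alb iBEC libraries, and 48.8% and 51.6% were lower in the L1L2_Alb iHP libraries. The values given next are the difference between the stages' mean effects on log2(RPKM + 1). *Thy1* was lower in L1L2_Alb iHB and iHP and higher in both L1L2_Alb iBEC libraries, by 2.59 for iBEC against iHB and by 2.80 for iBEC against iHP. *Des* did so by 1.72 and 3.29. *Pdgfra* was lower in L1L2_Alb iHB and higher in iBEC, by 1.41, but L1L2_Alb iBEC 2 was about level with its control (0.019). *Fbln2* was higher in L1L2_Alb iHB and lower in iBEC, with a difference of -0.52. Its single effects were small, at 0.36 in iHB and -0.060 and -0.27 in iBEC. The test of the difference over the 3 stages together (limma, moderated F) gave adjusted p-values of 0.521 for *Thy1*, 0.620 for *Des* and 1.00 for *Pdgfra* and *Fbln2*, so none passed, and each single pair of stages was not tested. Each iHB effect is 1 library against 1.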

How the results depend on the processing

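Among the members called by genotype, the count was 1 (*Mfap4*) with a pseudocount of 0.1 and 6 without iBEC. It was 0 to 3 with 1 L1L2_Alb iHP or iBEC library left out, and 0 under the other alternatives. Only those libraries were left out singly, here and below. The genotype effect was reversed for *Fbln2* with upper-quartile scaling (-0.072), quantile normalization (-0.14) and without iHB (-0.074), for *Pdgfra* with quantile normalization (0.061), without iHB (0.29) and in a leave-one-out range of -0.23 to 0.034, and without iHP for *Thy1* (0.18) and *Des* (0.51). For iBEC against iHB the count was 0 with a pseudocount of 0.1, no filter, a mean of at least 5 RPKM (which leaves out *Pdgfra*) or averaged pairs, and 0 to 1 with 1 library left out. There *Bgn* reached -0.068 with averaged pairs and ranged from -0.41 to 0.27, and *Pdgfrb* from -0.13 to 0.29, with 1 library left out. For iBEC against iHP the count was 0 with a pseudocount of 0.1, no filter, no trend or averaged pairs. It was also 0 with any 1 L1L2_Alb iHP or iBEC library left out (range 0 to 0), and 3 with either scaling. There *Postn* ranged from -0.074 to 0.76 and *Des* from -0.29 to 0.45 with 1 library left out, and *Des* was -0.16 with averaged pairs. Over all genes, 1284 were called by genotype, against 132 without iHP, 326 without iHB, 686 without a filter, 793 without L1L2_Alb iBEC 2 and 844 without L1L2_Alb iHP 1. Where no construction of the alternative shows it, the cause was not tested.

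The L1L2_Alb iHP and iBEC libraries share numbers only: deviations of same-numbered libraries had r = -0.022 over 13421 genes. In those 4 libraries iBEC against iHP gave 3 members of 457 genes called without a replicate block and 6 of 911 with it, and *Mfap4* was at 0.039 in both. No paired analysis was possible because each control has 1 library for the genotype comparison. Single-stage differences were recomputed under other scalings, a check chosen after seeing the data, and the counts past 2-fold were the same except for 7 in iHB with a pseudocount of 0.1.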
